A study of Mus musculus with 16 samples.

Results

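The imprinted Dlk1-Dio3 microRNA cluster was followed in mouse hearts through the array probes that name 43 of its microRNAs, with or without a letter or an arm and with star strands left out. That choice gave 58 of the 1023 mouse microRNA probes on the array, and all 58 were matched to a RefSeq precursor gene. The study housed C57BL/6 mice next to an aggressor as a model of posttraumatic stress disorder and measured microRNAs in heart RNA on 2-colour arrays. The data comprised 16 samples in 4 groups of 4, with 8 arrays that each held 2 samples of the same group, one in the dye Hy3 and the other in Hy5. Control mice sat in a wire mesh box in a large cage with no aggressor, and their titles carry a code, C2R1, that the sources used here do not explain. T1R1, T2R1 and T3R1 mice sat in such a box inside an aggressor's cage, met attacks there, and then had 1 day of rest; the design gives them 1, 2 and 3 days of exposure, at 6 hours a day. The protocol text attached to the same samples gives longer exposures, so the day counts used here are those of the design and the titles. RNA came from individual hearts, age and sex are not given in the sources used here, and no genetic change is named in any group. A whole heart mixes cell types, so fewer cells of a type and less RNA per cell cannot be told apart in any value below.

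MicroRNAs are short RNAs that pair with messenger RNAs mainly through their seed, bases 2 to 8 from the 5′ end, and lower the output of those messages. The Dlk1-Dio3 locus is imprinted: the protein genes Dlk1, Rtl1 and Dio3 are expressed from the paternal copy, and the long noncoding RNAs Meg3, Rian and Mirg, from which the microRNAs are cut, from the maternal copy. These microRNAs are known for expression in the embryo, the placenta and the adult brain. miR-127, miR-431, miR-433, miR-434 and miR-136 lie antisense to Rtl1, a gene needed in the placenta, and act against its transcript.

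On GRCm38.p6, the build of the RefSeq tables, the 58 probes belonged to 45 precursors on chromosome 12 between positions 109571990 and 109743795, a span of 171.8 kb. The segment from Meg3 to Rian held 12 precursors and 16 of the probes over 46.3 kb. The segment from miR-379 to miR-410 held 33 precursors and 42 probes over 34.7 kb. The RefSeq sequences below are those of the members above background and of miR-379, whose T1R1 samples stood apart from control. The star strands miR-433* and miR-493* are added, as their adjusted p between T3R1 and T1R1 was under 0.05 in the fit reported. Capitals mark the seed. For miR-487b the hairpin is printed, with its 5p strand in capitals; that is not the strand of the detected unstarred name, and its probe, miR-487b*, was above background in 0 samples. The array names of miR-667, miR-329, miR-377 and miR-379 carry no arm, and the strand shown is that of the older unstarred name, as background; the 5p strand is likewise shown for the 2 star names.
miR-667: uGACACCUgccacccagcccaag
miR-329: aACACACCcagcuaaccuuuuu
miR-377: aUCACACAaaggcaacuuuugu
miR-544-5p: uCUUGUUAaaaagcagagucu
miR-379: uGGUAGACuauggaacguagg
miR-433*: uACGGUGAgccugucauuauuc
miR-493*: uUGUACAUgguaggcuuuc
miR-487b hairpin: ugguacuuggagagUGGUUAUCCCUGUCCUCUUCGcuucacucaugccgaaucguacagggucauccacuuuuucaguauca

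These strands lie on the plus strand at chr12:109720061-109720083 (miR-667), chr12:109713541-109713562 (miR-329), chr12:109740553-109740574 (miR-377), chr12:109729335-109729355 (miR-544-5p), chr12:109709065-109709085 (miR-379), chr12:109591729-109591750 (miR-433*) and chr12:109580243-109580261 (miR-493*), and the miR-487b hairpin at chr12:109727333-109727414. Over the 86 mature strands that RefSeq gives for the 45 precursors there were 83 different seeds. The 3 shared seeds were those of miR-379-3p with miR-411-3p, miR-410-5p with miR-494-5p, and miR-376b-5p with miR-376c-5p. None of the printed seeds was shared with another strand of the cluster. The GC content of the printed member strands above background ran from 33.3% (miR-544-5p) to 65.2% (miR-667).

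Background was read from the array's probes for microRNAs of human viruses. A member was counted as above background in a sample where its normalised log2 signal exceeded the 95th percentile of those probes, called the virus-probe level here, and as detected where this held in at least 4 of the 16 samples. The virus-probe level lay between 6.62 and 6.95 on the log2 scale. Of the 58 members 5 were detected, against 21.9% of all mouse probes. mmu-miR-667, mmu-miR-329 and mmu-miR-487b were above the level in 16 of 16 samples, mmu-miR-377 in 9 and mmu-miR-544-5p in 8; the species prefix is left out from here on. All 5 lay in the segment from miR-379 to miR-410, and 0 of the 16 member probes between Meg3 and Rian were detected. Star strands are outside these counts, and miR-433*, miR-493* and miR-665*, whose precursors lie between Meg3 and Rian, were detected, as given below. Under the 99th percentile of the virus probes only miR-667 was detected.

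**Figure D1:**
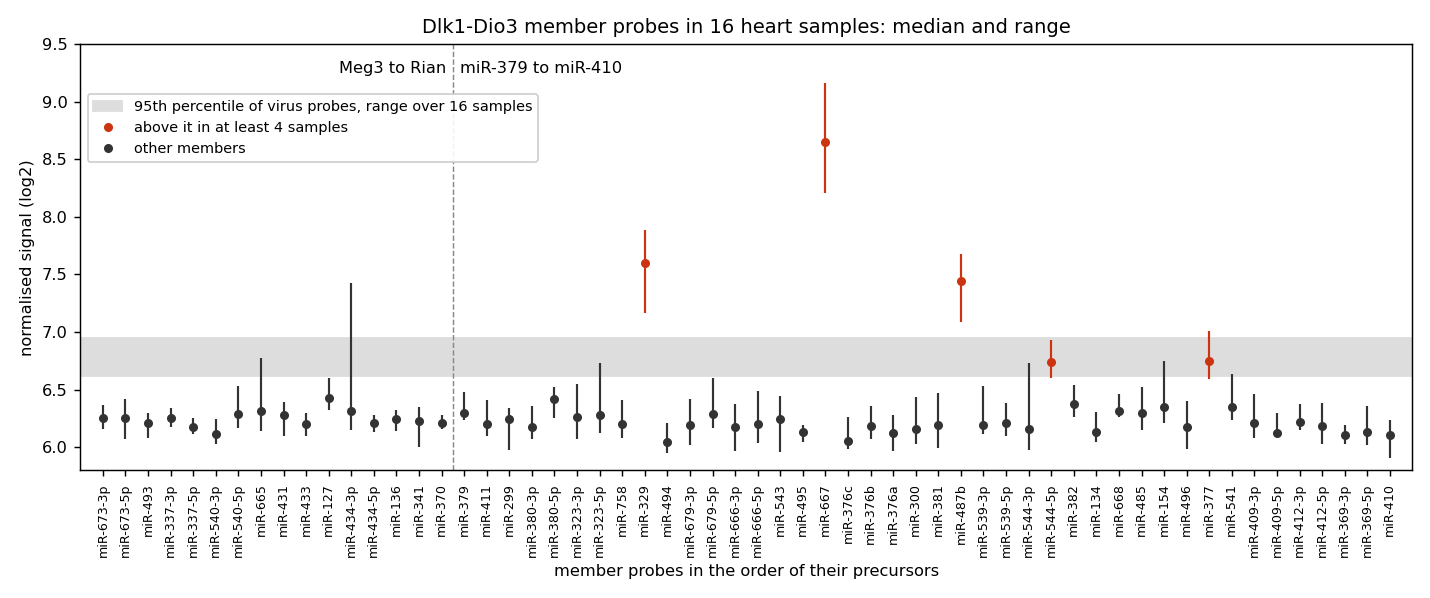
Normalised log2 signal of the 58 member probes in the order of their precursors; points are medians and lines the lowest to highest of 16 samples, and the grey band is the range of the virus-probe level, 6.62 to 6.95. 3 members lie wholly above the band, all of them right of the dashed line that divides the 2 segments, and miR-434-3p has 1 high sample. Star strands are not shown.

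The other 53 members gave group means between 6.05 and 6.51. Their means over all samples lay from 0.157 below to 0.228 above the median of the virus probes, and 27 of the 53 lay above it. In 52 of them no sample exceeded the virus-probe level. miR-127, a member antisense to Rtl1, ranged from 6.33 to 6.60 over the 16 samples. The range of the 4 group means of a low member had a median of 0.0695. miR-434-3p, just outside the count of detected members, was above the level in 1 sample, control replicate 1, at 7.42, while the other controls lay between 6.15 and 6.28. Its 4 spots there read 43.6, 46.4, 369 and 960 before correction, with a local background of 257.5 around the brightest, so 2 of the 4 spots carry that value.

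Other probes of the array for the same precursors gave the following readings. The rat miR-377 probe was above the level in 11 samples. Probes for miR-329*, miR-487b*, miR-377*, miR-667*, human miR-329, human miR-487a, human miR-544 and mouse miR-544-3p were above it in 0 samples.

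miR-667 was measured above background in every sample. In replicates 1 to 4 its log2 signals were 8.24, 8.88, 8.21 and 8.79 in control and 8.25, 8.98, 8.55 and 9.16 in T1R1. They were 8.43, 9.02, 8.27 and 9.10 in T2R1 and 8.30, 8.74, 8.40 and 8.99 in T3R1. The groups overlapped throughout, and the high samples of each group were those labelled with Hy5, replicates 2 and 4. The Hy5 sample was above the Hy3 sample on 8 of 8 arrays, with means of 8.96 ± 0.15 against 8.33 ± 0.12 (SD, n = 8 each), a dye difference of 0.63. The fit removes this difference as a dye term. With it removed, T1R1 was 0.21 ± 0.08 above control (SE; 95% interval 0.03 to 0.39; limma, adjusted p = 0.469). Within each dye both T1R1 samples were above both controls, by 0.18 in Hy3 and 0.24 in Hy5. T2R1 was 0.18 above control (adjusted p = 0.618) and T3R1 0.08 above it (adjusted p = 0.908). None of these differences passed the test. With the 2 samples of an array averaged, the unadjusted p went from 0.023 to 0.0595 in T1R1 and from 0.0496 to 0.0994 in T2R1 (limma). The intervals of miR-667 that exclude 0 in the fit reported therefore do not do so with arrays averaged. With arrays scaled by their medians the T1R1 and T2R1 differences were 1.01 and 0.97 and called (adjusted p = 7.8e-05 and 0.000159).

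miR-329, which in neurons is made with the rest of its segment in response to activity, gave log2 signals of 7.56, 7.51, 7.89 and 7.86 in control. They were 7.62, 7.59, 7.59 and 7.52 in T1R1, 7.62, 7.61, 7.61 and 7.49 in T2R1, and 7.27, 7.17, 7.80 and 7.72 in T3R1. T1R1 and T2R1 were tight, with SDs of 0.04 and 0.06, and all but T2R1 replicate 4 lay inside the control range. Control and T3R1 split by array: the array means were 7.53 and 7.87 in control and 7.22 and 7.76 in T3R1. T3R1 lay 0.21 ± 0.12 below control (95% interval -0.48 to 0.05; limma, adjusted p = 0.886). The gap between the T3R1 arrays exceeded that difference. The T1R1 difference was -0.13, and 0.39 and called when arrays were scaled by their medians.

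miR-487b gave the lowest p value of the members in T1R1 minus control, T2R1 minus T1R1 and T3R1 minus T1R1, but not in the other comparisons. Its control signals were 7.43, 7.61, 7.39 and 7.53, and its T1R1 signals 7.09, 7.30, 7.32 and 7.45. In T2R1 they were 7.32, 7.54, 7.38 and 7.68, and in T3R1 7.38, 7.50, 7.45 and 7.66. All 4 T1R1 samples lay below the control mean, but T1R1 replicate 4 lay above control replicates 1 and 3, so the groups overlapped. On 8 of 8 arrays the Hy5 sample of miR-487b was above the Hy3 sample, with a dye difference of 0.19 that the fit removes. The group means were 7.49 ± 0.10 in control, 7.29 ± 0.15 in T1R1, 7.48 ± 0.16 in T2R1 and 7.50 ± 0.12 in T3R1 (SD, n = 4 each). The fitted difference of T1R1 from control was -0.20 ± 0.06 (95% interval -0.33 to -0.07), with an unadjusted p of 0.00495 and an adjusted p of 0.194 (limma). With the 2 samples of an array averaged, that difference had an unadjusted p of 0.0411 and an adjusted p of 0.730 (limma). Within the dyes it was -0.20 in the Hy3 samples and -0.20 in the Hy5 samples, and it was 0.28 and not called when arrays were scaled by their medians. T2R1 was 0.19 above T1R1 (adjusted p = 0.996) and T3R1 0.21 above T1R1 (adjusted p = 0.112). The differences of T2R1 and T3R1 from control were -0.01 and 0.01, with 95% intervals of -0.14 to 0.12 and -0.12 to 0.14. That of T2R1 was 0.47 and called (adjusted p = 0.0121) when arrays were scaled by their medians.

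miR-377 and miR-544-5p sat at the virus-probe level. miR-377 read 6.67, 6.77, 6.67 and 6.83 in control, 6.73, 6.95, 6.67 and 6.80 in T1R1, 6.59, 6.71, 6.97 and 7.01 in T2R1, and 6.67, 6.72, 6.90 and 7.01 in T3R1. miR-544-5p read 6.76, 6.78, 6.60 and 6.72 in control, 6.60, 6.86, 6.64 and 6.89 in T1R1, 6.62, 6.77, 6.69 and 6.85 in T2R1, and 6.69, 6.91, 6.68 and 6.93 in T3R1. The groups overlapped for both. Whether they counted as above background went with the dye: miR-377 was above the level in 8 of 8 Hy5 samples and 1 of 8 Hy3 samples, and miR-544-5p in 8 of 8 and 0 of 8. The virus-probe level itself averaged 6.72 in Hy5 and 6.86 in Hy3. The part of the dye in these detections was not tested further. Differences from control were 0.05, 0.09 and 0.09 for miR-377 and 0.03, 0.01 and 0.08 for miR-544-5p in T1R1, T2R1 and T3R1, and each 95% interval included 0. For miR-544-5p the direction differed between the dyes, with -0.06, -0.03 and 0.00 in Hy3 and 0.12, 0.05 and 0.17 in Hy5, and its T1R1 difference was 0.22 and called (adjusted p = 0.0432) when arrays were scaled by their medians.

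**Figure D2:**
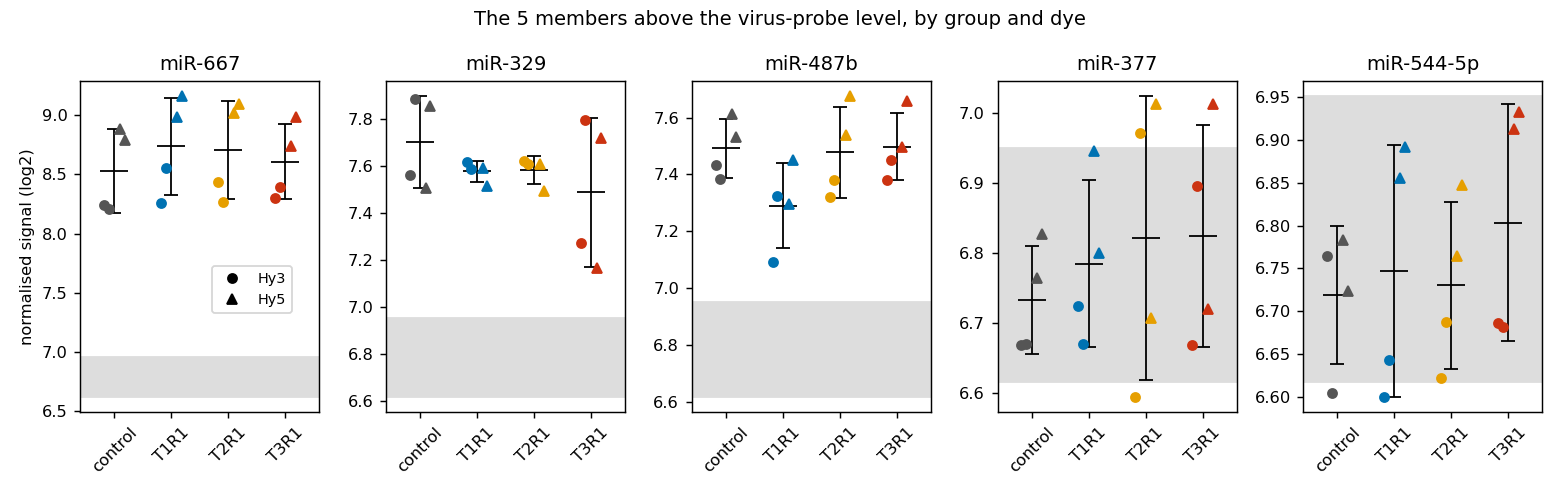
Normalised log2 signal of the 5 detected members in each of the 16 samples, by group; circles are Hy3 and triangles Hy5 samples, bars are mean ± SD (n = 4), and the grey band is the range of the virus-probe level. The vertical axes differ between panels. On 8 of 8 arrays the Hy5 sample is above the Hy3 sample for miR-667, miR-487b, miR-377 and miR-544-5p, and on 0 for miR-329. The groups overlap in every panel.

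The comparison of each exposed group with control asks whether the cluster changed after 1, 2 or 3 days beside an aggressor. With limma and Benjamini-Hochberg adjustment over all mouse probes, at an adjusted p under 0.05, no member was called in any of the 6 comparisons. In T1R1 against control 0 of 58 members were called, against 0.686% of all mouse probes; at an unadjusted p under 0.05 there were 4 members (3 higher, 1 lower), against 8.81%. In T2R1 against control 0 were called, against 0.881%, with 1 member at the unadjusted threshold (higher) against 8.02%. In T3R1 against control 0 were called, against 0%, with 1 member at the unadjusted threshold (lower) against 6.56%. The T3R1 and control arrays belong to the same run of slide numbers, as do those of T1R1 and T2R1. The other 4 comparisons lie across the runs, so there a group difference and a run difference cannot be told apart. The step between arrays mattered: without it 40, 43 and 48 members were called in T1R1, T2R1 and T3R1 against control, where the median of all mouse probes moved by -0.59, -0.62 and -0.62, and with median scaling 4, 2 and 0 members were. Calls over all mouse probes also rose with median scaling in T1R1 and T2R1, as given below. The all-probe count without the step is not given here, so these counts are not read as a result about the members.

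Among the exposed groups, T2R1 minus T1R1 gave 0 called members, against 0%, and 3 at the unadjusted threshold (1 higher, 2 lower) against 3.42%. T3R1 minus T1R1 gave 0, against 2.15%, and 5 (2 higher, 3 lower) against 13%. T3R1 minus T2R1 gave 0, against 1.08%, and 4 (3 higher, 1 lower) against 9.58%. The smallest adjusted p of a member over the 6 comparisons was 0.112, for miR-487b in T3R1 minus T1R1.

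The signs were split as well. Relative to control 35, 33 and 34 of the 58 members had a positive fitted difference in T1R1, T2R1 and T3R1, against 55.2%, 51.4% and 50.4% of all mouse probes. Between the exposed groups 28 (T2R1 minus T1R1), 27 (T3R1 minus T1R1) and 25 (T3R1 minus T2R1) were positive, against 45.4%, 42.4% and 44.3%. Relative to control, the median difference of the members was 0.006, 0.010 and 0.012, and that of all mouse probes 0.009, 0.003 and 0.001. Over the 5 detected members the medians were 0.03, 0.01 and 0.08, beside 0.03, -0.01 and 0.03 over all detected mouse probes. The 16 members between Meg3 and Rian had medians of 0.02, 0.00 and 0.01, and the 42 members from miR-379 to miR-410 had 0.01, 0.01 and 0.01.

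The intervals give the size of change that the fit reported leaves possible on this scale, with its step between arrays and its array correlation. In T1R1 against control the member differences ran from -0.20 (miR-487b) to 0.21 (miR-667), and their 95% intervals from -0.65 (miR-434-3p) to 0.44 (miR-665). In T2R1 the intervals ran from -0.76 (miR-434-3p) to 0.36 (miR-665), and in T3R1 from -0.69 to 0.38, both of miR-434-3p. For miR-434-3p the sign depended on control replicate 1: its differences of -0.12, -0.22 and -0.15 became 0.21, 0.10 and 0.17 without that sample. An offset of 50 was added to every intensity, so differences of dim probes are compressed and these bounds apply to the normalised signal, not to RNA amounts. The bounds do not cover other steps between arrays: with median scaling, the miR-667 differences in T1R1 and T2R1 given above lay beyond the highest bounds.

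**Figure D3:**
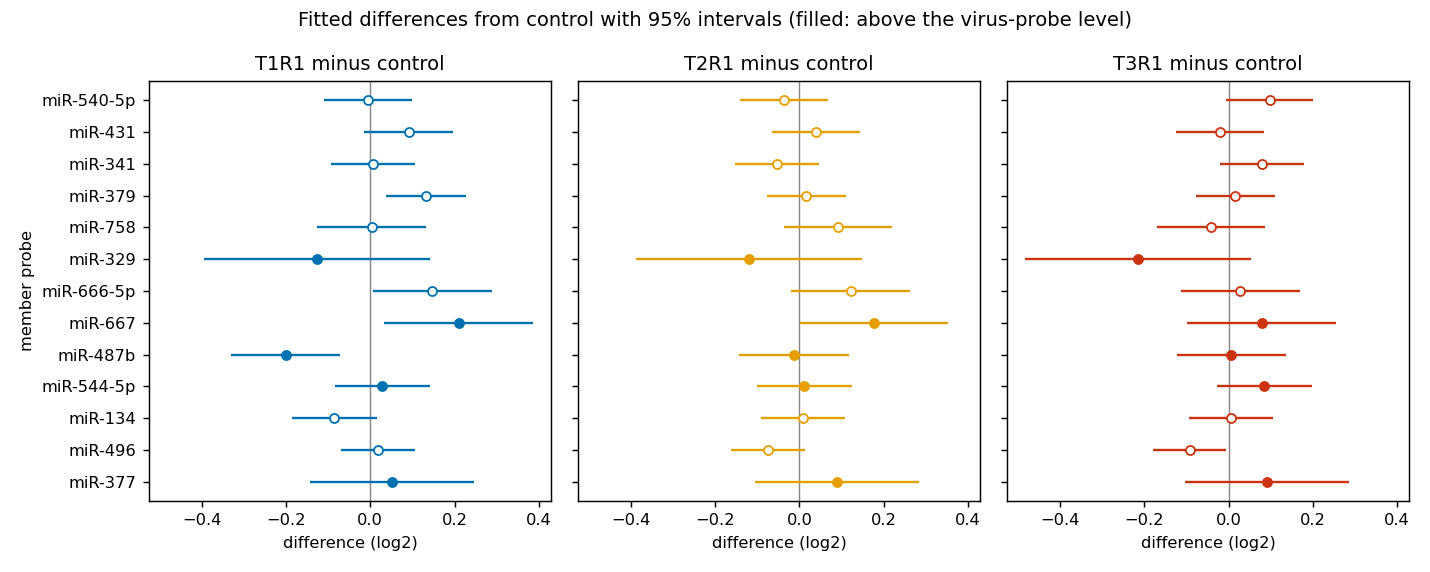
Fitted log2 differences from control (horizontal axis) with 95% intervals for the 13 members named by rule, in the order of the cluster, for T1R1, T2R1 and T3R1; filled points are detected members. Intervals that exclude 0 belong to miR-379, miR-666-5p, miR-667 and miR-487b in T1R1, to miR-667 in T2R1 and to miR-496 in T3R1, and none of these passed adjustment. With the 2 samples of an array averaged, the unadjusted p of miR-667 was 0.0595 in T1R1 and 0.0994 in T2R1 (limma).

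Below the virus-probe level, miR-379, which names its segment, read 6.29, 6.28, 6.25 and 6.30 in control and 6.40, 6.31, 6.48 and 6.46 in T1R1. Every T1R1 sample was above every control sample, by 0.13 ± 0.04 in the fit (95% interval 0.04 to 0.23; limma, adjusted p = 0.299), but all these readings are below background as measured here. It was 0.17 and called (adjusted p = 0.0104) when arrays were scaled by their medians. It was 0.12 lower in both T2R1 and T3R1 than in T1R1 (adjusted p = 0.996 and 0.255). The other low members named by their p values were miR-666-5p, 0.15 higher in T1R1 than in control (adjusted p = 0.534), and miR-431, 0.09 higher there (adjusted p = 0.672). miR-134, known in neurons for limiting the growth of dendritic spines, was 0.09 lower in T1R1 than in control (adjusted p = 0.687). miR-496 was 0.09 lower in T3R1 than in control (adjusted p = 0.658), and miR-540-5p 0.10 and miR-341 0.08 higher (adjusted p = 0.794 and 0.886). miR-758 was 0.13 lower in T3R1 than in T2R1 (adjusted p = 0.499), and miR-341 0.13 higher (adjusted p = 0.299).

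Groups without overlap were few among the members. In T1R1 against control they were miR-379 and, lower, miR-380-3p (-0.07), against 5.81% of all mouse probes. In T2R1 there was none, against 4.42%. In T3R1 they were miR-540-3p, lower (-0.05), and miR-412-3p, higher (0.05), against 3.53%. miR-134 and miR-539-3p were higher in both T2R1 and T3R1 than in T1R1 without overlap, against 2.26% and 7.46%, and in T3R1 minus T2R1 there was none, against 5.29%. miR-380-3p, miR-540-3p, miR-412-3p and miR-539-3p were singled out after their values were seen, and all are below the virus-probe level.

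The star strands of the same precursors held all the calls made at the locus. Of 32 star-strand probes 6 were detected: miR-300*, miR-433* and miR-493* in 16 of 16 samples, miR-665* in 10, and miR-299* and miR-758* in 4 each. Their unstarred partners were above the level in 0 samples. The precursors of miR-433*, miR-493* and miR-665* lie between Meg3 and Rian, and those of miR-300*, miR-299* and miR-758* in the segment from miR-379 to miR-410. miR-433* read 7.84, 7.82, 7.85 and 7.80 in control, 7.58, 7.57, 7.82 and 7.82 in T1R1, 7.75, 7.67, 7.77 and 7.91 in T2R1, and 8.03, 8.04, 7.96 and 7.95 in T3R1. Every T3R1 sample was above every sample of the other groups. miR-493* read 7.21, 7.39, 7.04 and 7.11 in control, 7.19, 7.50, 7.04 and 7.17 in T1R1, 7.35, 7.64, 7.22 and 7.37 in T2R1, and 7.52, 7.56, 7.72 and 7.96 in T3R1. The T3R1 samples were above all control and T1R1 samples and overlapped with T2R1.

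Between T3R1 and T1R1 2 of the 32 star strands were called, against 2.15% of all mouse probes: miR-433* was 0.30 ± 0.07 higher (adjusted p = 0.0388) and miR-493* 0.47 ± 0.11 higher (adjusted p = 0.0388; limma). Each was called under 9 of 30 alternative settings, with adjusted p values from 0.0184 to 0.998 for miR-433* and from 0.0165 to 0.998 for miR-493*, and run and group cannot be told apart in that comparison. Both calls were lost with the array correlation estimated on the probes above the virus-probe level, 0.627 (adjusted p = 0.139 for miR-493* and 0.165 for miR-433*), and when the 2 samples of an array were averaged (adjusted p = 0.385 for each). Markers of other cell types moved in the same comparison. miR-146a, a leukocyte microRNA, was 0.32 ± 0.05 lower in T3R1 than in T1R1 (limma, adjusted p = 0.00367), and the summed level of the 6 leukocyte probes ran from 9.48 to 9.61 in T3R1 and from 9.64 to 10.08 in T1R1. The T3R1 readings of miR-146a, 6.34 to 6.57, were all below the virus-probe level. Of the 6 leukocyte probes 5 had negative differences and 1 a positive one. miR-214, a fibroblast microRNA, was 0.33 ± 0.08 higher (adjusted p = 0.0477), with sums of the 4 fibroblast probes from 9.38 to 9.79 in T3R1 and from 9.16 to 9.52 in T1R1, so the sums overlapped. Of those 4 probes 3 had positive differences and 1 a negative one. All 3 erythroid probes had negative differences, with a median of -0.51 and none called. Both endothelial probes (median -0.25) and 4 of 6 heart muscle probes (median -0.09) were negative as well. Both smooth muscle probes were positive (median 0.05), and none of these 3 lists held a call. The part of these cell types in the star-strand differences was not tested. Within 1 run of slides, T3R1 exceeded control by 0.50 ± 0.11 for miR-493* (adjusted p = 0.205) and by 0.17 ± 0.07 for miR-433* (adjusted p = 0.574), and 0 of the 32 were called, with 4 at the unadjusted threshold against 6.56% of all mouse probes. In T1R1 the lowest p values were those of miR-379* (-0.14; adjusted p = 0.528) and miR-154* (0.08; adjusted p = 0.562), and in T2R1 those of miR-665* (0.27; adjusted p = 0.164) and miR-541* (0.14; adjusted p = 0.456), with 0 star strands called in either. In T2R1 miR-665* was called with the replicate number as a block (adjusted p = 0.0194, with 0.00405 to 0.697 over its alternatives). miR-541* was called there at 0.75 on the processed signals (adjusted p = 0.0449) and at -0.52 with no step between arrays (adjusted p = 0.0488), with 0.0449 to 0.995 over its alternatives.

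**Figure D4:**
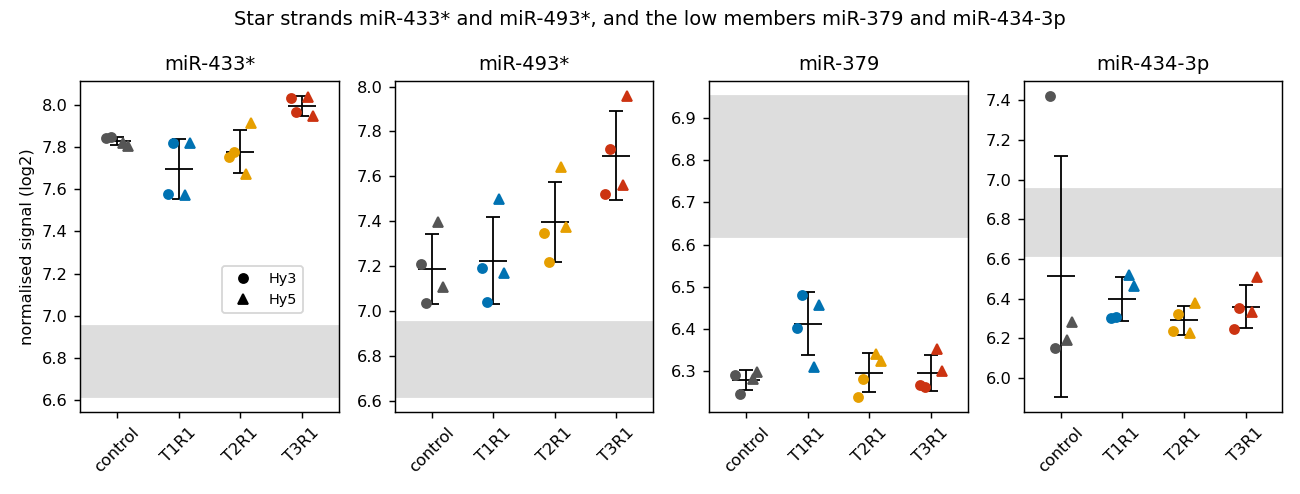
Normalised log2 signal by group of the star strands miR-433* and miR-493* and of the low members miR-379 and miR-434-3p; circles are Hy3 and triangles Hy5 samples, bars are mean ± SD (n = 4) and the grey band is the range of the virus-probe level. The vertical axes differ between panels. T3R1 has the highest mean for both star strands, and miR-434-3p has 1 control sample at 7.42.

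Of 15 further probes for Dlk1-Dio3 microRNAs outside the member names 1 was detected, the probe shared by miR-3070a* and miR-3070b-5p, with a control mean of 8.92, and 0 were called in any comparison. The lowest p values against control belonged to miR-770-5p (0.07) and miR-1193-5p (-0.06) in T1R1, to miR-3070a (-0.11) and miR-3072 (0.09) in T2R1, and to miR-3070a (-0.10) and miR-770-3p (0.11) in T3R1. At the other imprinted loci 24 of 65 probes were detected, and 0 were called. There miR-335-3p, from the Mest locus, was 0.17 higher in T1R1 and 0.19 higher in T3R1 than in control (adjusted p = 0.389 and 0.557). miR-466i-3p was 0.17 lower in T1R1, miR-466h-3p 0.12 higher and miR-297a 0.09 lower in T2R1, and miR-467f 0.17 higher in T3R1 (adjusted p = 0.589, 0.587, 0.625 and 0.557), all of them names shared with the Sfmbt2 cluster.

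The heart label was checked against its markers. Of 6 probes for heart muscle microRNAs 5 were detected, miR-133a, miR-133b and miR-499 in all 16 samples and miR-208a-3p in 15. Of 9 probes for neuronal microRNAs 0 were detected, and miR-124 and miR-9 were above the virus-probe level in 0 samples. Probes for erythroid (3 of 3), leukocyte (5 of 6), endothelial (2 of 2), smooth muscle (2 of 2) and fibroblast (4 of 4) microRNAs were detected. Against control 1 of these marker probes was called, miR-150 of the leukocyte list, 0.25 ± 0.04 lower in T2R1 (limma, adjusted p = 0.00836). In T3R1 minus control all 4 fibroblast probes had positive differences (median 0.29) and all 3 erythroid probes negative ones (median -0.31), with none called. All 6 leukocyte probes (median -0.12) and both endothelial probes (median -0.22) were negative there too. So were 5 of 6 heart muscle probes (median -0.09) and the 1 smooth muscle probe tested (-0.03), again with none called. The raw median intensity of the mouse probes ran from 41.2 to 73.7 per sample, 165 to 242 mouse probes were above the level, and no member spot was saturated.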

How the data were processed

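MicroRNAs were measured in heart RNA of 16 mice on 8 2-colour locked nucleic acid arrays. The deposited scanner files give, per the file headers, the intensity of each spot and its local background from Agilent Feature Extraction 9.5.3.1, with processed intensities and other marks (outlier, saturated, well above background). A deposited table holds log2 values of the same samples; their scale and direction were read from correlations of 0.961 to 0.994 with the matching channel, and their centring is unknown (median 3.76 in each column).

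Intensities were corrected by normexp (offset 50), then loess within arrays, then Aquantile between arrays (R 4.3.3, limma 3.58.1). Outlier spots were left out and the 4 spots of a probe averaged on the log2 scale. Group and dye were fitted over all 16 samples, with the array as a random block (correlation 0.249) and eBayes. Over the mouse probes above the virus-probe level alone that correlation was 0.627. P values were adjusted by Benjamini-Hochberg over the mouse probes tested (1021 to 1023). The scanner's well-above-background mark was set for at least 99.9% of spots, so virus probes measured background. The number of arrays, 2 per group, limits the precision. The median SE of a difference was 0.06 over all mouse probes, 0.09 over those above the virus-probe level and 0.08 over the detected members. Replicates are individual hearts.

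The members and lists were chosen with earlier results of these data known. Named members were the detected ones, any called, and the 3 others with the lowest p in each comparison; each further list gave its 2 lowest p values against control. Same-numbered samples share a dye, not an animal, and were not paired. The fit was also run on simulated data, with larger differences than those of the members in the fit reported and no dye effect. That run does not show how the fit performs on differences of the members' size. Alternatives covered background, signal, scaling, block, dye and filter choices, each dye alone (added after the data were examined), and each sample left out. Sequences and positions come from RefSeq (GRCm38.p6); miR-487b-3p is not printed here.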

Additional observations from a re-analysis of the deposited data

Results flagged for a closer look

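Of 76 groups of 4 values examined for the members named in the text, 5 held a sample far from the other 3. Chance alone gives about 1 in 20 such groups where members are not chosen by their values. Some members here, miR-539-3p among them, were named after their values were seen, so that rate cannot be set against their groups. miR-329 in T2R1 replicate 4 read 7.49, below the other T2R1 samples at 7.61 to 7.62. miR-341 in control replicate 2 read 6.00, below the other controls at 6.25 to 6.29, and without that sample its difference of T3R1 from control was 0.03 in place of 0.08. miR-434-3p in control replicate 1 read 7.42, above the other controls at 6.15 to 6.28. miR-539-3p read 6.54 in T2R1 replicate 4, above the others at 6.19 to 6.23, and 6.34 in T3R1 replicate 4, above the others at 6.18 to 6.20.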

How the results depend on the processing

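No member was called under 29 of the alternative settings; the exceptions were 2 scalings between arrays. Outside these, 6235 of 6316 values for single named microRNAs kept their direction or stayed uncalled on both sides. The 77 that lost a call were of miR-433*, miR-493*, miR-146a and miR-214 in T3R1 minus T1R1 and of miR-150 in T2R1 minus control; miR-214 was called under 5 of its 30 alternatives. The 4 that gained one were of miR-665* and miR-541* (0.75 on processed signals) in T2R1 minus control and of miR-467f. With no step between arrays 40, 43 and 48 members were called in T1R1, T2R1 and T3R1 against control, where the median difference of all mouse probes was -0.59, -0.62 and -0.62 in those comparisons, and the medians over the detected members were -0.35, -0.29 and -0.43, and -0.18 in T3R1 minus T2R1. The count of all mouse probes called with no step is not given here, so those member counts have no share to be read against. With median scaling 4 and 2 members were called in T1R1 and T2R1 against control, where 215 and 198 mouse probes were. It also gave 1 called member in each of T3R1 minus T1R1 and T3R1 minus T2R1 (miR-667). The all-probe counts of these 2 comparisons under median scaling are not given here, so the miR-667 calls have no share to be read against. Under that scaling the medians over the detected members were 0.28 and 0.36 against control and -0.19 in T3R1 minus T2R1. From the deposited table the same medians were 0.23 in T1R1 and 0.21 in T2R1. The count of detected members was 1 at the 99th percentile and 3 where all 16 samples were required. With no step, differences called with the other sign were miR-431 -0.52, miR-341 -0.59, miR-758 -0.63, miR-496 -0.60, miR-541* -0.52, miR-154* -0.56, miR-770-5p -0.55, miR-466h-3p -0.57, miR-127 -0.54, miR-412-3p -0.62 in T1R1; miR-379 -0.61, miR-431 -0.61, miR-758 -0.57, miR-134 -0.65, miR-541* -0.52, miR-154* -0.64, miR-466h-3p -0.55, miR-127 -0.46, miR-412-3p -0.60 in T2R1; miR-379 -0.61, miR-666-5p -0.64, miR-341 -0.53, miR-540-5p -0.53, miR-134 -0.65, miR-541* -0.52, miR-297a -0.60, miR-127 -0.51, miR-380-3p -0.61, miR-412-3p -0.60, miR-539-3p -0.63 in T3R1. With median scaling they were miR-329 0.39, miR-433* 0.45, miR-467f 0.48 in T1R1 and miR-487b 0.47, miR-433* 0.52, miR-466i-3p 0.30 in T2R1 against control, where the called miR-150 became 0.063 and not called, and miR-335-3p -0.36 in T3R1 minus T1R1; miR-667 was called at 1.01 and 0.97 against control in T1R1 and T2R1. The cause was not tested.

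Leaving out each sample in turn gave 0 called members in every comparison, with medians over the detected members of -0.00061 to 0.05 (T1R1 minus control), -0.02 to 0.06 (T2R1), 0.05 to 0.08 (T3R1), 0.00018 to 0.02 (T2R1 minus T1R1), 0.01 to 0.07 (T3R1 minus T1R1) and -0.04 to 0.05 (T3R1 minus T2R1). Outside the 2 scalings, the mouse probes called ranged from 0 to 15 in T1R1 minus control (7 in the fit reported), from 1 to 16 in T2R1 (9), from 0 to 1 in T3R1 (0), from 0 to 29 in T3R1 minus T1R1 (22) and from 1 to 15 in T3R1 minus T2R1 (11). The replicate block also gave 0 called members and a median of 0.03 in T1R1 minus control, and it brought miR-665* in T2R1 minus control to a call (0.27; adjusted p = 0.0194, with 0.00405 to 0.697 over its alternatives). Same-numbered samples correlated at 0.07 to 0.66, and at -0.43 to 0.33 once the dye was removed. Depth has no counterpart on arrays; 53 of 58 members were not detected above the virus-probe level.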
